A study of Mus musculus with 24 samples.

Results

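The effect of angiotensin II infusion on the brain transcriptome was measured as a comparison of 12 infused mice with 12 mice that were not infused, with amnion epithelial cells as the second factor. The infused side held 6 mice that received angiotensin II alone and 6 that received angiotensin II + amnion epithelial cells. The other side held 6 mice infused with saline vehicle and 6 that received vehicle + amnion epithelial cells. These are all 24 mice of the series, and 27286 of the 54532 genes deposited were tested, those with a value above 0 in 6 or more mice. All mice were male C57BL/6J, wild type, 8 to 12 weeks old, and carried a subcutaneous osmotic minipump. The pump ran for 14 days with saline, or with angiotensin II at a dose of 0.7 mg/kg/day. Amnion epithelial cells are human cells from the placental membrane, and the mice assigned to them received 1000000 cells by tail vein on the day of surgery, while the others received saline. Each replicate is the brain of a separate mouse, taken as frozen hemispheres, so every value is an average over all cell types of the tissue, vessels and blood included. Whether the brains were perfused before RNA extraction is not stated in the study's methods for this experiment.

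Angiotensin II is the effector peptide of the renin-angiotensin system. Angiotensinogen is cut by renin and then by angiotensin-converting enzyme, and the product constricts vessels and raises blood pressure mainly through the type 1 receptor. Infused into mice it is a standard model of hypertension, which is known to act on cerebral arteries, endothelium and circulating leukocytes. Neutrophils, the granulocytes named below, are circulating cells that are rich in S100A8, S100A9 and granule proteins, and they are scarce in healthy brain tissue.

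Expression was read as FPKM, the fragments of a gene scaled by its length and by the size of the library. Depth was 16536449 to 25308700 fragments per mouse. The samples had the markers of brain, with a mean over the 24 mice of 288 FPKM for Snap25, a synaptic vesicle fusion protein of neurons, and 521 FPKM for Mbp, a structural protein of myelin. The summed FPKM of all genes was 338334 to 348597 in 6 libraries and 277116 to 298301 in the other 18. Mitochondrial genes took 6.17% to 6.85% and 4.79% to 5.75% of fragments, respectively. The 6 libraries were 3 infused and 3 not infused mice, so this split was balanced across the main comparison, but it was not balanced within the mice with or without amnion cells. Among mice without cells it held 2 vehicle mice and 1 infused mouse, and among mice with cells 1 vehicle mouse and 2 infused mice. Results are therefore also given with this library set as a term in the fit.

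The main effect was small relative to the variation between mice. In limma on log2(FPKM + 0.1), 0 of 27286 genes had an adjusted p-value under 0.05, and the lowest adjusted p-value was 0.9999. The unadjusted threshold of 0.05 was passed by 642 genes (2.35% of those tested), of which 360 (1.32%) were higher and 282 (1.03%) were lower with angiotensin II. The share lay under the 5% that this threshold allows when no gene differs. No gene had 12 infused mice that all lay above, or all below, the 12 mice that were not infused (0 of 27286 genes, 0%). Log2 differences below are infused minus not infused in log2(FPKM + 0.1), a scale that shrinks differences of weakly expressed genes.

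The precision of the comparison was high for expressed genes. The standard error of the log2 difference had a median of 0.13 over all genes and 0.096 over the 13649 genes with a mean of at least 1 FPKM. The 95% interval lay within a 1.5-fold change in either direction for 12825 (94.0%) of these expressed genes and for 21166 (77.6%) of all genes tested. Of the expressed genes, 98 (0.718%) lay past the unadjusted threshold, with 61 (0.447%) higher and 37 (0.271%) lower. With the library set as a term the log2 differences were the same, since the set was balanced, while the number of genes past the unadjusted threshold was 1231 (4.51%), with 733 (2.69%) higher and 498 (1.83%) lower. Again 0 genes passed the adjusted threshold, and the lowest adjusted p-value in limma was 0.639.

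**Figure D1:**
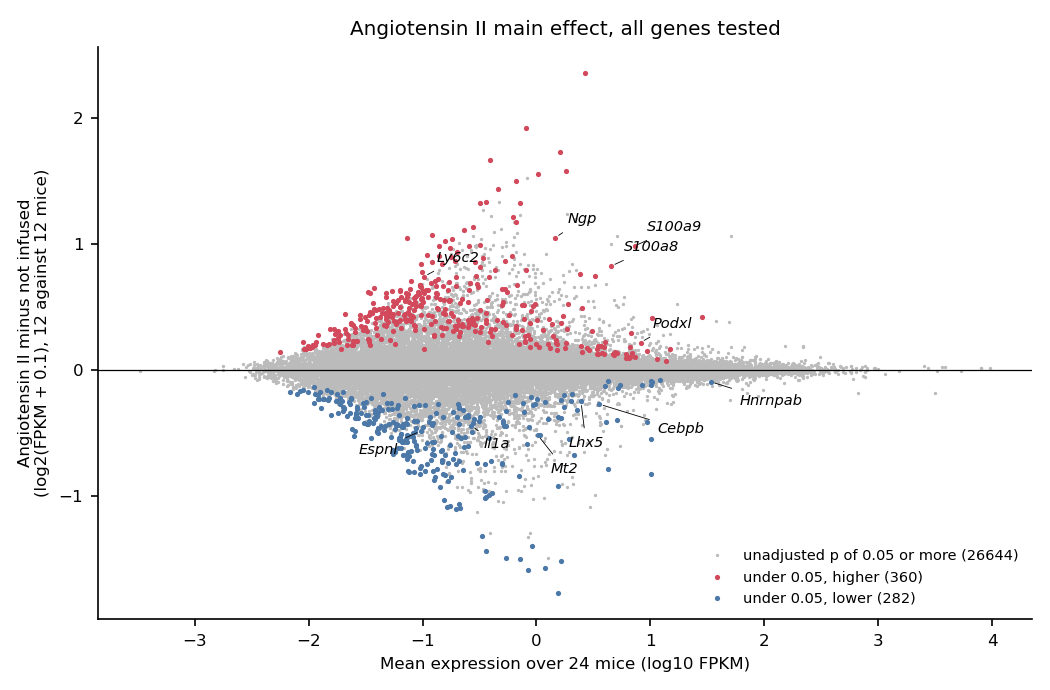
Log2 difference between 12 infused and 12 not infused mice (vertical axis, log2(FPKM + 0.1)) against mean expression over 24 mice (horizontal axis, log10 FPKM) for the 27286 genes tested. Red and blue points are the 360 higher and 282 lower genes with an unadjusted p-value under 0.05, and the named genes carry their symbols.

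Among protein-coding genes with a mean of at least 1 FPKM, the neutrophil genes S100a9, S100a8 and Ngp were 3 of the 4 genes with the lowest p-values on the higher side. S100A8 and S100A9 are calcium-binding proteins that pair as calprotectin and make up a large share of the cytosolic protein of neutrophils, and Ngp encodes a protein of neutrophil granules. The 250 bases before the RefSeq start of each gene are shown because these genes were higher together. The sequences are from RefSeq on GRCm38.p6, each written on the strand of its gene, and capitals mark the matches of TATAAA, where basal factors bind, and of TTNNGCAA (the core of C/EBP factor sites, searched on both strands). S100a8 lies at chr3:90668821-90669070 on the plus strand, S100a9 at chr3:90695722-90695971 on the minus strand and Ngp at chr9:110419558-110419807 on the plus strand.
S100a8: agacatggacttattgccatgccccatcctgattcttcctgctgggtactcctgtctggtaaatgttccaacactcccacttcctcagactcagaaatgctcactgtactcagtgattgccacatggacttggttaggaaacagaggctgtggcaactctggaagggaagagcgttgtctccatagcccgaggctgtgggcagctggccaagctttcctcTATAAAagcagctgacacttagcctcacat
S100a9: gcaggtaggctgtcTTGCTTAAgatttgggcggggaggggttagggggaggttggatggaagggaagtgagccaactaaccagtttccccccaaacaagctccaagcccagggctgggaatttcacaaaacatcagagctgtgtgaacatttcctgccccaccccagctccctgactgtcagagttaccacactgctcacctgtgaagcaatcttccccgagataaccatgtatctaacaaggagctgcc
Ngp: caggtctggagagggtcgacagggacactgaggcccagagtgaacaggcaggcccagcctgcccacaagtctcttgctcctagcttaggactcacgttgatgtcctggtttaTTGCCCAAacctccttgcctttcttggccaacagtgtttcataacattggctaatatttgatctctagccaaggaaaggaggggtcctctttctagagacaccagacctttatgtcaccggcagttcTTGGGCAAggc
S100a8 has TATAAA from 30 to 25 bases before the start. S100a9 has TTNNGCAA once, as TTGCTTAA on the opposite strand, 236 bases before the start. Ngp has it at 138 bases before the start as TTGCCCAA on the opposite strand and at 11 bases as TTGGGCAA. The deposited table places the starts of S100a8 and Ngp 93 and 61 bases further upstream than RefSeq, so the last stretch of these windows is transcribed by that annotation. Over 32817 RefSeq promoters, 9.57% hold TTNNGCAA and 12.4% hold TATAAA in such a window. The matches are a description of letters and do not show binding.

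In S100a9, the 12 mice that were not infused had 2.10 FPKM at the lowest, 4.82 at the median and 7.47 at the highest. The 12 infused mice had 3.41, 8.85 and 22.2 FPKM at the lowest, median and highest. The groups overlapped, with 8 of the 12 infused mice above every mouse that was not infused. The log2 difference was 0.98 (standard error 0.28, n = 12 against 12), with an unadjusted p = 0.00167 and an adjusted p = 0.9999 in limma and a two-sided exact permutation p = 0.00347. S100a8, its partner, ranged from 1.75 to 5.54 FPKM around a median of 2.73 without infusion and from 1.84 to 14.04 around 4.54 with infusion. Its log2 difference was 0.82 (standard error 0.24, exact permutation test, two-sided p = 0.00400, n = 12 against 12), and 5 infused mice exceeded the highest mouse that was not infused.

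Ngp had 0.163 to 1.71 FPKM (median 0.791) in mice that were not infused and 0.566 to 5.77 FPKM (median 1.30) in infused mice. The log2 difference was 1.05 (standard error 0.34, exact permutation test, two-sided p = 0.00757, n = 12 against 12). Retnlg, which encodes a resistin-like protein of mouse neutrophils, had 0.0661 to 0.985 FPKM (median 0.360) and 0.176 to 1.32 FPKM (median 0.947), respectively. Here the log2 difference was 0.90 (exact permutation test, two-sided p = 0.0116, n = 12 against 12). Both genes overlapped between the groups, and 10 of 12 infused mice lay above the median of the mice that were not infused in each. Over the 18 libraries alone Retnlg did not pass the unadjusted threshold, with a log2 difference of 0.66.

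**Figure D2:**
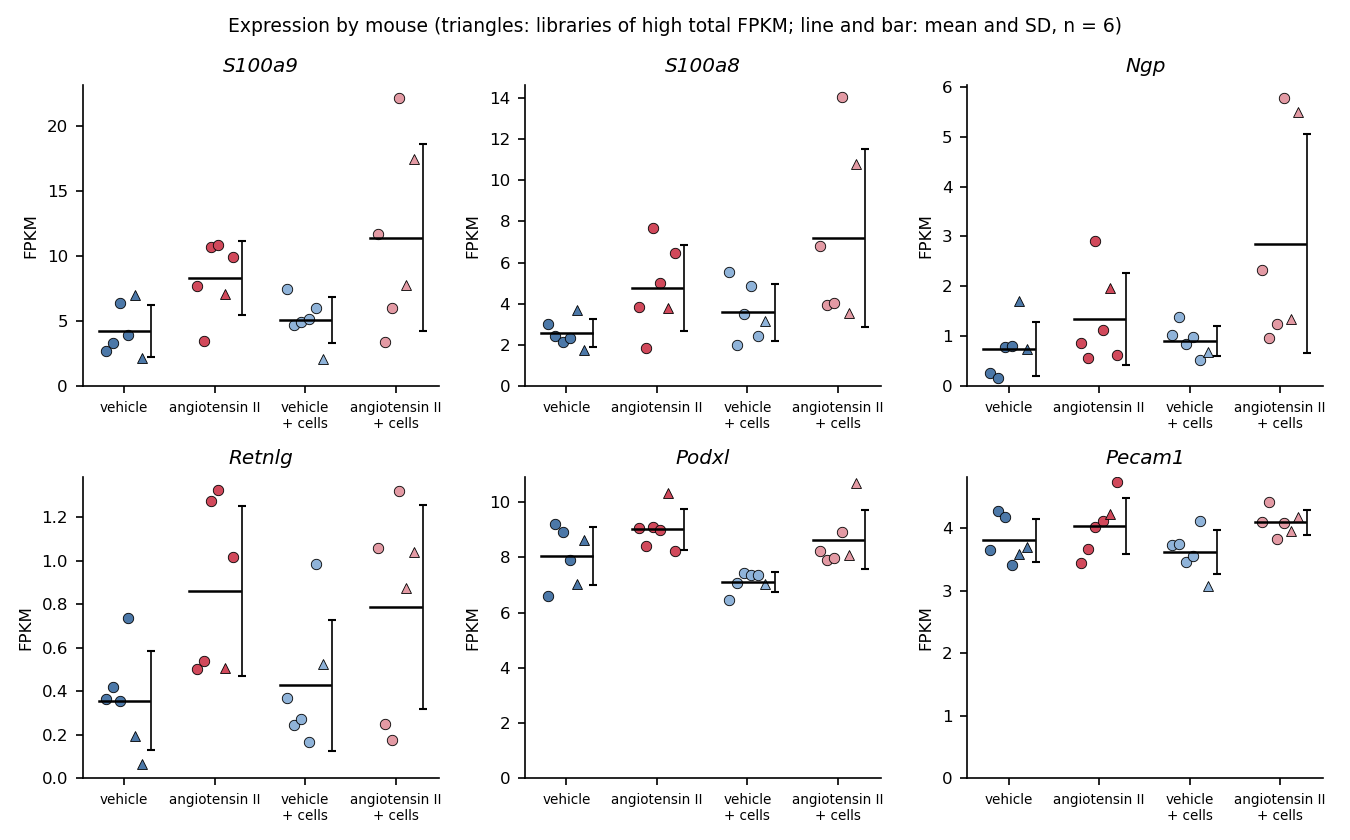
FPKM (vertical axes, from 0) of 6 genes in each mouse of the 4 groups of 6, with the mean and SD of each group; triangles mark the 6 libraries of high total FPKM. S100a9, S100a8, Ngp and Retnlg are neutrophil genes, Podxl and Pecam1 are endothelial genes, and the 12 infused and 12 not infused mice overlap in every gene. Within the mice with cells, the infused and vehicle groups do not overlap in Podxl. The share of all genes that do not overlap among these 12 mice is not given, so this does not set Podxl apart.

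As a group, the neutrophil list of 14 genes had 8 members higher at an unadjusted p-value under 0.05, beside 1.32% of all genes, and 0 lower. None passed the adjusted threshold in limma. All 14 had a positive log2 difference, with a median of 0.67, beside 52.7% positive and a median of 0.004 over all genes tested. The other members past the threshold, named after their values were seen, were Ltf (lactotransferrin, 0.82), Camp (cathelicidin, 0.79), Elane (neutrophil elastase, 0.74) and Mpo (myeloperoxidase, 0.61). Lcn2 (0.57, unadjusted p = 0.0837 in limma), Ly6g (0.37), Mmp8 (0.18), Prtn3 (0.18), Mmp9 (0.13) and Cxcr2 (0.11) did not pass it. Many of these genes rested on few reads, with a median over the 24 mice of 61 reads for S100a9, 48.5 for S100a8, 2 for Elane and 0 for Ly6g. S100a8, S100a9, Ltf, Lcn2 and Camp were selected by the study from these animals, so their direction is not independent evidence.

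Summed over the 14 genes, the level was 8.10 to 19.3 FPKM (median 11.5) in mice that were not infused and 8.83 to 54.2 FPKM (median 20.3) in infused mice. Of the 12 infused mice, 6 lay above the highest mouse that was not infused and 11 above the median of the mice that were not infused. The count of members higher was 8 with the library set as a term (2.69% of all genes) and 7 in the 18 other libraries alone (2.26%). It ranged from 6 to 10 when single mice were left out, with the lowest count without angiotensin II replicate 3. In bulk tissue, more neutrophils and more RNA per neutrophil cannot be told apart.

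Genes of other blood cells were read beside the neutrophil genes. In the erythroid list, 2 of 8 members were higher at the unadjusted threshold (1.32% of all genes), among them Slc4a1 (the anion exchanger of red cells, 0.48), and the list had a median log2 difference of 0.45. The count was 2 with the library set as a term and 0 in the 18 other libraries alone. It ranged from 1 to 3 when single mice were left out, and was 1 without angiotensin II replicate 3, vehicle + amnion epithelial cells replicate 3, or angiotensin II + amnion epithelial cells replicate 1 or 4. In the mice without cells Slc4a1 differed by 0.05 and in the mice with cells by 0.91, with an unadjusted interaction p-value of 0.0336 in the limma fit of all 24 mice. The summed level of the 8 erythroid genes was 33.2 to 204.5 FPKM (median 72.0) in mice that were not infused and 37.1 to 189.8 FPKM (median 123) in infused mice, so no infused mouse lay above the highest mouse that was not infused. With the summed erythroid level of each mouse as a term, 7 of 14 neutrophil genes were higher (1.79% of all genes), with a median log2 difference of 0.57. Among lymphocyte genes, 0 of 16 T and B cell genes passed the threshold. Of 16 microglial genes 0 did (1 was higher with the library set as a term). Of 8 genes of perivascular and border macrophages 1 was higher (1.32% of all genes), F13a1 (coagulation factor XIII subunit A), by 0.30. Ms4a7 of this list went the other way, by -0.29. The list median was 0.03, with 5 of 8 positive. With the library set as a term F13a1 was higher and Ms4a7 lower (2.69% and 1.83% of all genes, respectively).

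**Figure D3:**
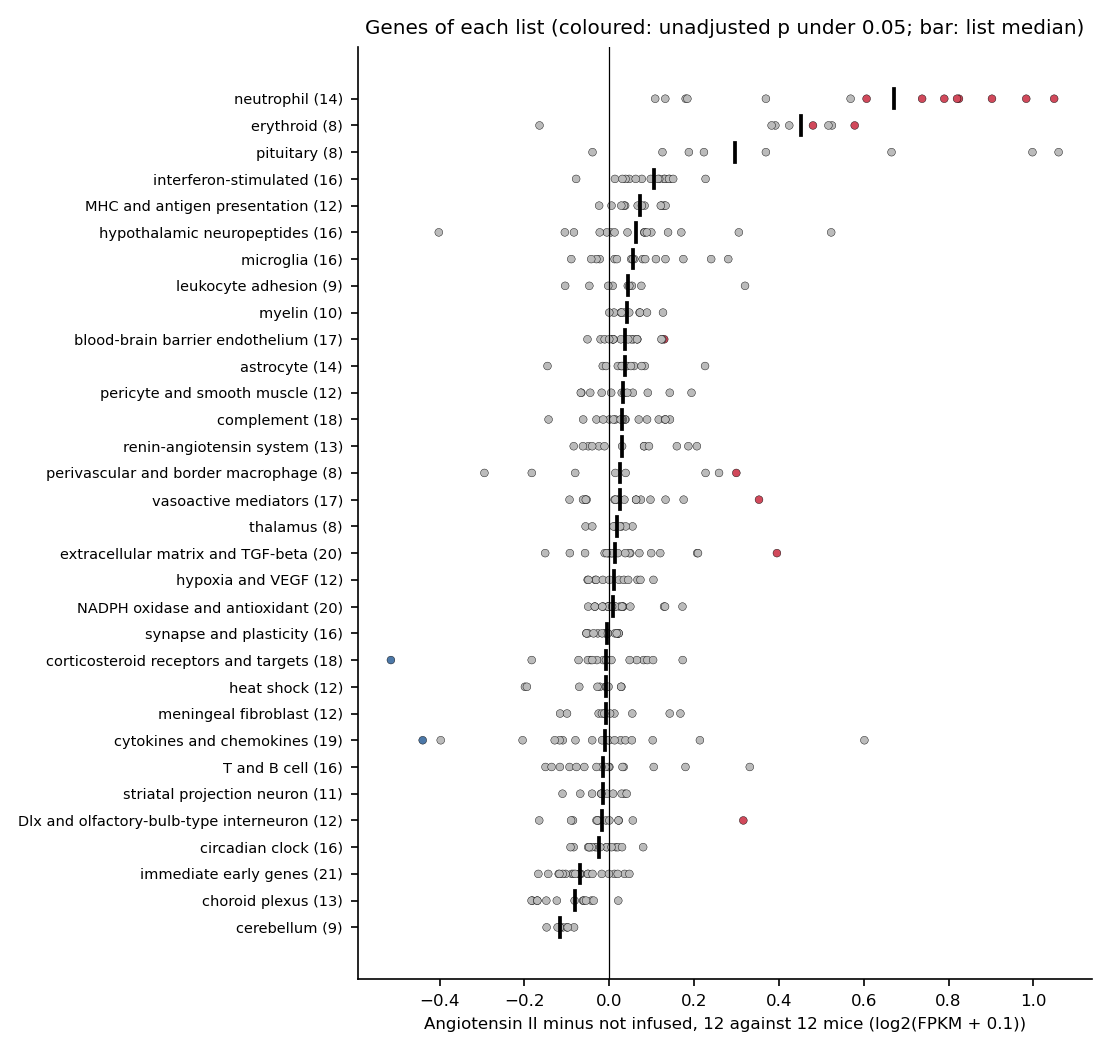
Log2 difference of each gene (points) in 32 gene lists, with the number of genes tested in parentheses and the list median as a black bar; red and blue points had an unadjusted p-value under 0.05. The neutrophil list has 8 red points and the highest median, 0.67, and the cerebellum list the lowest, -0.12.

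The same comparison was made separately in the 12 mice without amnion cells and in the 12 mice with amnion cells, which share no mouse. Without cells, 646 genes (2.37%) passed the unadjusted threshold, and with cells 672 (2.46%) did, with 0 past the adjusted threshold of limma in either. Under some alternatives 1 to 3 genes passed it in one or the other comparison, each with at most 9 reads in any mouse. There were 18 genes past the threshold in both with the same direction and 18 with opposite directions. Of genes with at least 1 FPKM that encode proteins, S100a8 and S100a9 were the 2 that passed in both with the same direction, and 0 passed with opposite directions. S100a9 differed by 0.98 without cells (exact permutation test of 6 against 6, two-sided p = 0.0260) and by 0.99 with cells (exact permutation p = 0.0693). S100a8 differed by 0.78 (exact permutation p = 0.0411) and 0.87 (exact permutation p = 0.0584). By the exact test, the difference in the mice with cells thus missed the threshold in both genes. Neutrophil genes were higher at the unadjusted threshold in 4 of 14 cases without cells (1.29% of all genes) and 6 of 14 with cells (1.38%). Camp differed by 0.03 without cells and by 1.55 with cells, and its interaction had an unadjusted p = 0.0284 in the limma fit of all 24 mice. The study picked Camp from these animals as higher with cells among infused mice. Its interaction is therefore not independent evidence.

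The log2 differences of the mice with and without cells were set beside each other across all genes. Pearson's r across genes, which are not independent replicates, was -0.109 over 27274 genes and -0.285 over the 13649 genes of at least 1 FPKM. With the library set as a term the values were 0.00713 and 0.101. In that fit 3.99% of genes passed without cells and 3.7% with cells, and 38 genes passed in both with the same direction and 28 with opposite directions. The correlation thus changed sign among expressed genes when the set, which was unevenly divided within each comparison of 6 against 6, was in the fit. The interaction of angiotensin II and amnion cells passed the unadjusted threshold in 692 genes (2.54%) and the adjusted threshold of limma in 0, and its lowest adjusted p-value was 0.0897. That gene was Tnni3k, a cardiac kinase gene with 1 to 15 reads per mouse, which passed with array weights (adjusted p = 0.0153 in limma). Among expressed protein-coding genes the lowest interaction p-values belonged to Slco4a1, an organic anion transporter, with 0.26 without and -0.23 with cells, to Dnph1, a nucleotide hydrolase, with -0.39 and 0.17, and to Thumpd2 with 0.19 and -0.29. Their interaction p-values were 0.00462, 0.00466 and 0.00546, unadjusted, in limma.

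**Figure D4:**
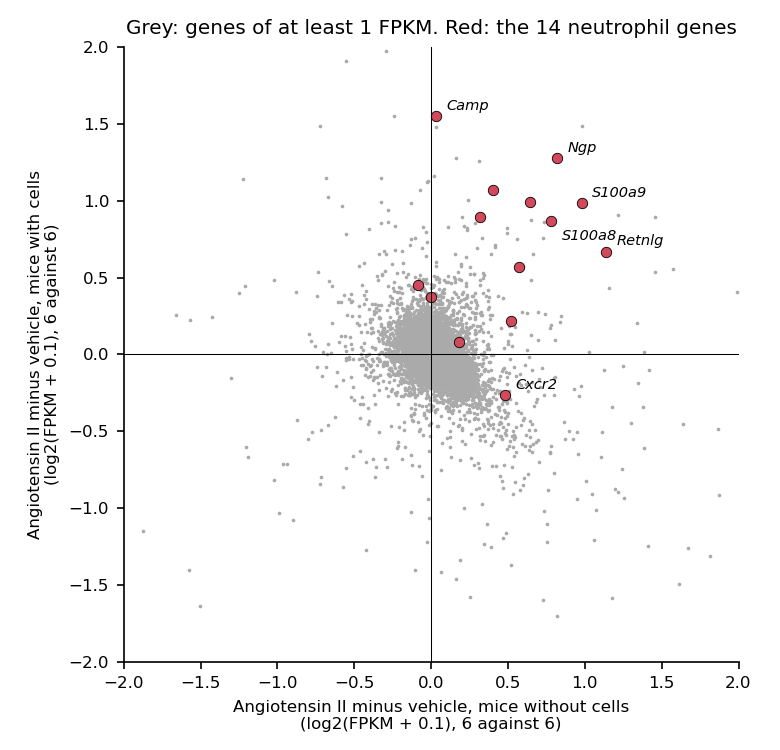
Log2 difference between infused and not infused mice among the 12 mice without amnion cells (horizontal axis) and the 12 mice with amnion cells (vertical axis), for 13649 genes of at least 1 FPKM (grey, of which 11 lie outside the axes at 2) and the 14 neutrophil genes (red). S100a9 lies at 0.98 and 0.99, and Camp at 0.03 and 1.55.

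Genes of the renin-angiotensin system were measured to see whether the infused peptide was accompanied by a difference in its own pathway. None passed the unadjusted threshold: 0 of 13 genes in limma, beside 2.35% of all genes. Agt, which encodes angiotensinogen and is made by astrocytes, had 42.9 to 72.8 FPKM (median 53.5) without infusion and 41.6 to 72.4 FPKM (median 51.8) with it. Its log2 difference was -0.05, with a 95% interval from -0.25 to 0.15. Ace, the converting enzyme, differed by -0.02 (interval -0.12 to 0.07), and Atp6ap2, the prorenin receptor, by 0.03 (interval -0.04 to 0.10). All 13 intervals lay within a change of 1.5-fold in either direction on this scale, which shrinks the differences of the weakly expressed receptors described next.

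The receptors were expressed at low levels. Agtr1a (chromosome 13, 30336441 to 30382867), the main type 1 receptor, had 0.0536 to 0.294 FPKM (median 0.161) without infusion and 0.0749 to 0.301 FPKM (median 0.169) with it, a log2 difference of 0.16 (interval -0.18 to 0.49). Agtr1b differed by 0.19 and Agtr2, the type 2 receptor, by 0.21, with intervals that include 0. Mas1, the receptor of angiotensin-(1-7), had the lowest p-value of the list, with a log2 difference of -0.08 (exact permutation test, two-sided p = 0.124, n = 12 against 12). Within the mice without cells Agtr1a differed by 0.61 (exact permutation test of 6 against 6, two-sided p = 0.0108) and within the mice with cells by -0.29 (exact permutation p = 0.165). The interaction had an unadjusted p = 0.00296 and an adjusted p = 0.931 in limma, and the gene had 3 to 15 reads per mouse.

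**Figure D5:**
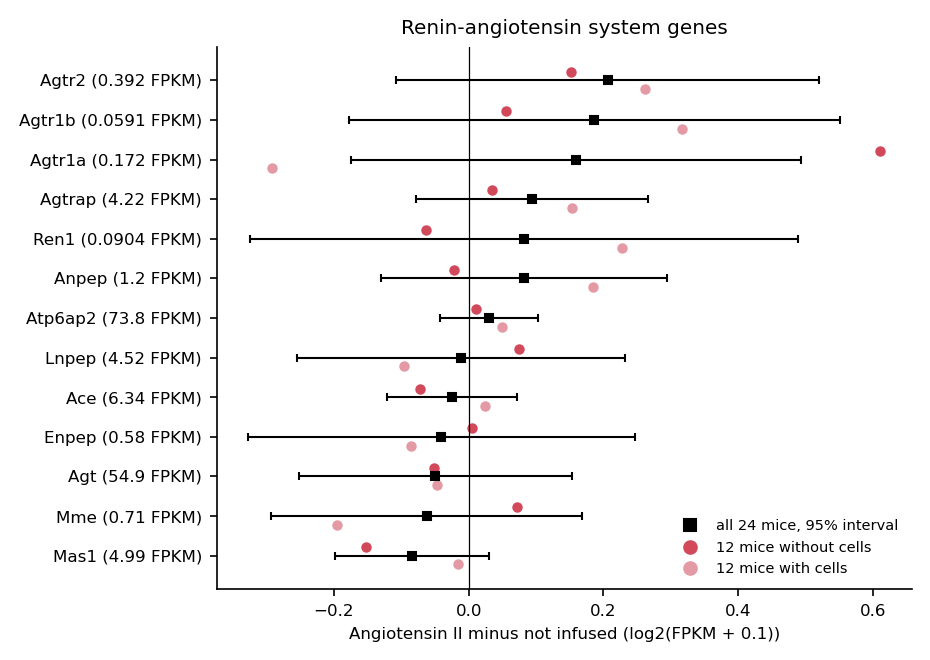
Log2 difference (horizontal axis) of the 13 renin-angiotensin system genes, with mean FPKM in parentheses; black squares and bars are all 24 mice with 95% intervals, and red and pink points the mice without and with amnion cells. Every interval includes 0, and Agtr1a is the gene whose points lie furthest apart, at 0.61 and -0.29.

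Among genes of vessels and matrix, single members lay past the unadjusted threshold, beside 2.35% of all genes. Podxl (chromosome 6 of GRCm38, 31519488 to 31563981), encoding podocalyxin of the luminal endothelial surface, had the lowest p-value of all protein-coding genes of at least 1 FPKM. It had 6.46 to 9.19 FPKM (median 7.35) without infusion and 7.90 to 10.7 FPKM (median 8.65) with it. The log2 difference was 0.22 (standard error 0.06, exact permutation test, two-sided p = 0.000506, n = 12 against 12), and all 12 infused mice lay above the median of the mice that were not infused. Pecam1, the endothelial adhesion molecule CD31, was higher by 0.13 (unadjusted p = 0.0293 in limma) as the 1 of 17 endothelial genes past the threshold. Nos2, the inducible nitric oxide synthase, was higher by 0.35 (exact permutation p = 0.0457), 1 of 17 vasoactive genes, and lost this place in 13 of the 24 fits that left out a mouse. In the matrix and TGF-beta list 1 of 20 genes was higher (1.32% of all genes), and 1 to 3 were when single mice were left out. None of 9 leukocyte adhesion genes and none of 12 pericyte and smooth muscle genes passed. With the library set as a term (2.69% of all genes higher), 3 of 17 endothelial, 3 of 20 matrix, 1 of 9 adhesion and 2 of 12 pericyte and smooth muscle genes were higher. In the 18 other libraries alone (2.26%), 0 endothelial, 1 matrix, 0 adhesion and 0 pericyte and smooth muscle genes were higher, and 1 of the last was lower.

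Other expressed genes that were higher at the unadjusted threshold had small differences. Pou2f2, a transcription factor of B cells and neurons, differed by 0.17, and 8 of 12 infused mice exceeded every mouse that was not infused. Panx1, which forms ATP-releasing channels, differed by 0.16, and Cyp2j12, a cytochrome P450, by 0.33. Umps, the last enzyme of uridine monophosphate synthesis, differed by 0.14, Cercam by 0.19 and Gm8797 by 0.52. The exact permutation test gave two-sided p-values from 0.00165 (Pou2f2) to 0.00960 (Cercam) for these 6 genes (n = 12 against 12).

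On the lower side, the lowest p-value among expressed genes was that of Lhx5 (chromosome 5, 120431699 to 120441223), a LIM homeodomain factor of forebrain and hypothalamic development. It had 2.19 to 3.07 FPKM (median 2.67) without infusion and 1.64 to 2.93 FPKM (median 2.15) with it. The log2 difference was -0.25 (standard error 0.08, exact permutation test, two-sided p = 0.00397, n = 12 against 12), and 7 of 12 infused mice lay below every mouse that was not infused. Hnrnpab, an RNA-binding protein, was among the most abundant of these genes, at a median of 35.3 and 32.7 FPKM, and differed by -0.09 (exact permutation p = 0.00488). Cebpb, a C/EBP transcription factor of inflammation and metabolism, differed by -0.27 (exact permutation p = 0.0164), and it was picked by the study on these mice. Cebpb overlaps Tmem189 and Hnrnpab overlaps Phykpl in the annotation, so reads may be shared. Gm3435, Pcdhb3 (a protocadherin), Rai2, Dact1 (a regulator of Wnt signalling), Gm14295, Barhl1 (a homeodomain factor) and Astn2 (astrotactin 2, of neuronal migration) were lower by log2 differences from -0.37 to -0.08.

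Below 1 FPKM the p-values were lower, and the reads few. Ly6c2 (chromosome 15, 75108158 to 75111970), encoding the monocyte antigen Ly6C, had 0 to 6 reads without infusion and 3 to 15 with it, and all 12 infused mice lay above the median of the others. The log2 difference was 0.74 (exact permutation test, two-sided p = 0.000211, n = 12 against 12). Ly6c2 is a close copy of Ly6c1, so reads may be divided between them, and Ly6c1, an endothelial gene at 29.6 FPKM, differed by 0.12. Espnl (chromosome 1, 91322075 to 91348306), an espin-like actin-binding protein, had 7 to 20 reads without infusion and 2 to 14 with it, a log2 difference of -0.48 (exact permutation test, two-sided p = 8.67e-05, n = 12 against 12). Gm44523, a processed pseudogene, had 0 reads in all 12 mice that were not infused and 0 to 4 in infused mice. It entered the fit through infused mice alone, so a gene kept this way had to differ and its p-value is no support. Gm17931, another processed pseudogene, was higher by 0.69 and the long noncoding RNA 5031425F14Rik lower by 0.50.

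Lists of stress hormone, activity and inflammation genes showed single members or none past the unadjusted threshold, beside 2.35% of all genes. In the corticosteroid list 1 of 18 genes passed the unadjusted threshold, the metallothionein Mt2, which binds metals. It was lower by 0.51 on the log2 scale (0.629 to 2.18 FPKM without and 0.256 to 1.53 FPKM with infusion) and lost this place in 8 of 24 fits that left out a mouse. Mt2 had 3 to 24 reads per mouse, and Mt1 of the same list, at a mean of 274 FPKM, differed by -0.008. Of 21 immediate early genes, which report recent neuronal activity, 0 passed, and Fos differed by -0.14. Il1a, encoding interleukin 1 alpha, was lower (-0.44, exact permutation test, two-sided p = 0.0277, n = 12 against 12), the 1 of 19 cytokine and chemokine genes past the threshold, while Il1b, Il6, Tnf and Ccl2 differed by -0.11, -0.003, -0.01 and -0.0006. In the interferon list 0 of 16 genes passed and 15 had a positive difference, with a median of 0.11, beside 52.7% positive over all genes. None of 18 complement genes passed, C4b being closest (0.09, unadjusted p = 0.0537 in limma). In the interaction, 3 of 18 complement and 2 of 19 cytokine and chemokine genes passed the unadjusted threshold, beside 371 of 27286 genes in that direction. Their difference was lower in the mice with cells than in those without. The study picked the complement genes Cfb and C5ar1 from these animals, so the complement count is not independent evidence. With the library set as a term, 1 complement, 1 interferon and 1 cytokine gene were higher, 1 cytokine gene was lower, and 1 corticosteroid gene was lower. Over all genes, 2.69% were higher and 1.83% lower in that fit. In the 18 other libraries alone (2.26% of all genes higher), 1 complement gene was higher. There, no corticosteroid, cytokine or interferon gene passed, so Mt2 and Il1a did not.

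Cell and region lists of the brain had medians near 0. None of 16 synaptic, 10 myelin, 14 astrocyte, 20 NADPH oxidase and antioxidant, 16 circadian, 12 hypoxia, 12 heat shock, 12 antigen presentation, 11 striatal, 8 thalamic or 12 meningeal fibroblast genes passed the threshold. With the library set as a term, 1 astrocyte, 1 circadian, 1 hypoxia and 2 meningeal fibroblast genes were higher and 1 striatal gene was lower. The shares over all genes were 2.69% higher and 1.83% lower. Cerebellar genes had the lowest median, -0.12, with 0 of 9 positive and 0 past the threshold. Choroid plexus genes had a median of -0.08, with 1 of 13 positive and 0 past it. Of all genes tested, 52.7% were positive. The summed cerebellar level overlapped between the groups, at 210 to 294 FPKM without and 154 to 275 FPKM with infusion. How much cerebellum, choroid plexus or pituitary each hemisphere carried was not tested. Dlx1as, an antisense transcript of Dlx1, was the 1 of 12 Dlx and interneuron genes past the threshold, beside 2.35% of all genes. Its log2 difference was 0.32 (exact permutation p = 0.0359), with 0.72 without cells and -0.09 with cells. It overlaps Dlx1 and the use of strand in the counting is not stated, so reads of both cannot be told apart. Pituitary hormone genes had a median of 0.30 with 0 of 8 past the threshold, and the median was 0.05 without angiotensin II replicate 4. Their summed level was 0.888 to 26.1 FPKM (median 3.10) without infusion and 1.02 to 1237 FPKM (median 3.09) with it. The highest value was that of angiotensin II replicate 4, and the next infused mouse had 29.6 FPKM. None of 16 hypothalamic neuropeptide genes passed, with Gnrh1 at 0.31 and Crh at 0.14.

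With the library set as a term, the expressed genes with the lowest p-values were in part other genes. Those were chosen for naming after these values were seen, while Panx1, Cercam, Cebpb and Pcdhb3 are also named above. On the higher side were Eln (elastin of artery walls, 0.34), Thnsl1 (0.17), Panx1 (0.16), Lgals9 (galectin 9, 0.23) and Cercam (0.19), with unadjusted p-values in limma from 7.02e-05 to 0.000584. Eln had 0.976 to 2.85 FPKM (median 1.39) without infusion and 1.43 to 3.49 FPKM (median 1.78) with it, and an unadjusted p = 0.0798 without the term. The lower side held Cebpb (-0.27), Pcdhb3 (-0.26), Il17d (an interleukin 17 family member, -0.14), Endog (mitochondrial endonuclease G, -0.23) and Star (the cholesterol carrier of steroid synthesis, -0.20). Their unadjusted p-values in limma were 0.000480 to 0.00146 with the term, and none of the 10 genes had an adjusted p-value under 0.05. Cebpb and Endog were selected by the study from these animals as lower, so their direction is not independent evidence.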

How the data were processed

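RNA of brain hemispheres from 24 mice was sequenced by the study. The authors deposited 1 table of FPKM values per gene and mouse, with gene length and GRCm38 coordinates. Their methods name mapping to the Ensembl mouse genome, and the submitters' processing notes name DESeq 1.10.1. The aligner, counting program and use of strand are not given in the sources used here. Groups came from the sample labels. FPKM multiplied by gene length gave whole reads for 100% of values (within 0.01 reads), which set the depth of 16536449 to 25308700 fragments.

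The comparison was fitted by limma 3.58.1 (R 4.3.3) to log2(FPKM + 0.1), with additive terms for angiotensin II and amnion cells, a mean-dependent trend in eBayes and p-values adjusted by Benjamini-Hochberg. Genes with a value above 0 in 6 or more mice entered. For single genes, an exact permutation test (two-sided) shuffled infusion labels within the mice with and without cells (853776 assignments, smallest p 2.34e-06). FPKM is not a count, so the count model of the study was not used. The fit was run on simulated reads with known fold changes, as a check of the code. Those reads had the same dispersion for every gene and no library set, so they do not measure power in these data. Alternatives were other pseudocounts, filters, terms, scaling, array weights, limma voom on recovered reads, the library set, the replicate number as a block, and single mice left out. The summed erythroid level, and the library set with the block, were added after seeing the data.

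The 32 gene lists (449 symbols, of which 443 were tested) and the comparison were chosen with earlier results of these data known. Named were the 10 higher and 10 lower protein-coding genes with the lowest p-values and a mean of at least 1 FPKM, the 5 with the lowest p-values under 1 FPKM, up to 4 members of each list, all renin-angiotensin genes, genes past the threshold both with and without cells, and the 3 lowest interaction p-values. Results of a few genes that this rule would name are left out here. Ahsp and Ccn2 were not matched by symbol, and Kiss1, Cfd, Ccl19 and Cxcl2 did not pass the filter. Tables were made in Python 3.11.15 (numpy 2.4.6, pandas 2.3.3) and plots in matplotlib 3.10.9. Promoters are from RefSeq.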

Additional observations from a re-analysis of the deposited data

Results flagged for a closer look

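Within the groups of 6, 36 values of the named genes stood apart from the other 5 mice by Dixon's criterion, among 405 group tests. Chance gives about 1 in 20. Vehicle + amnion epithelial cells replicate 6 gave 9 of them, and angiotensin II replicate 5 gave 5; both are libraries of high total FPKM. Angiotensin II replicate 1 was high in Cybb (0.33 FPKM, next 0.202). Angiotensin II replicate 4 was high in Pou1f1 (0.164 FPKM, next 0.0416), Cga (12.02 FPKM, next 0.178), Hspa1a (4.87 FPKM, next 2.82) and Hspa1b (8.53 FPKM, next 4.45). Angiotensin II replicate 5 was high in Ly6c1 (43 FPKM, next 31.7), Pdgfrb (5.8 FPKM, next 5.22), Mgp (44 FPKM, next 24.7), Epas1 (36 FPKM, next 31.7) and Eln (3.49 FPKM, next 2.1). Angiotensin II replicate 6 was high in Gpr6 (6.86 FPKM, next 5.79). Angiotensin II + amnion epithelial cells replicate 1 was high in Pou2f2 (2.1 FPKM, next 1.96), Sele (0.274 FPKM, next 0.0896) and Hspa1a (5.17 FPKM, next 3.07). Angiotensin II + amnion epithelial cells replicate 2 was high in Mal (133 FPKM, next 106). Angiotensin II + amnion epithelial cells replicate 5 was high in Ms4a7 (0.191 FPKM, next 0.1), Ogn (4.12 FPKM, next 2.87), Mgp (39.5 FPKM, next 27.2) and Pou1f1 (0.0971 FPKM, next 0.0126). Angiotensin II + amnion epithelial cells replicate 6 was high in Podxl (10.7 FPKM, next 8.91) and Clec7a (0.551 FPKM, next 0.233). Vehicle replicate 3 was high in Cga (0.388 FPKM, next 0.0564). Vehicle replicate 6 was high in Panx1 (3.26 FPKM, next 2.72). Vehicle + amnion epithelial cells replicate 3 was high in Cd79b (0.300 FPKM, next 0.109) and Ace (6.97 FPKM, next 6.21). Vehicle + amnion epithelial cells replicate 4 was high in Cga (0.208 FPKM, next 0.0576). Vehicle + amnion epithelial cells replicate 5 was high in Crh (6.55 FPKM, next 5.31). Vehicle + amnion epithelial cells replicate 6 was high in Cd74 (11.2 FPKM, next 5.32), Grin1 (46.8 FPKM, next 39.1), Epas1 (35 FPKM, next 30), Eln (2.55 FPKM, next 1.57), Lgals9 (5.46 FPKM, next 2.84), Il17d (27.1 FPKM, next 20.8) and Endog (18.9 FPKM, next 11.4) and low in Hnrnpab (32.1 FPKM, next 34.6) and Mal (81.8 FPKM, next 104). The pituitary genes Cga and Pou1f1 were high together in angiotensin II replicate 4, where Cga reached 12.02 FPKM against 0.178 in the next mouse. No explanation of these values was tested.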

How the results depend on the processing

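In limma, 0 genes passed the adjusted threshold in the main comparison in every alternative run, and no named gene that passed the unadjusted threshold changed direction. The count of genes at the unadjusted threshold was 642. It was 101 when only genes of at least 1 FPKM were tested, 1187 with array weights, 1231 with the library set as a term, 1291 with the set and the replicate block, and 1050 in the 18 other libraries. The interaction count was 692, and 118, 1282 and 1146 with the filter, array weights and 18 libraries. Genes past the threshold in the same direction both with and without cells numbered 18, and 3 with the filter, 53 with array weights, 38 with the set term, 55 with the set and the block, and 43 in the 18 libraries. With single mice left out, the counts ranged from 596 to 704, from 617 to 1244 and from 10 to 21, respectively, and stayed at 0 for the adjusted threshold of the main comparison and the interaction. The interaction count was 1244 without vehicle + amnion epithelial cells replicate 6, a library of high total FPKM, and the count shared by both comparisons was 10, 11 and 11 without replicates 2, 3 and 4 of that group. In the mice without cells, genes past the adjusted threshold of limma were Mir207 and Gm44354 with array weights, these 2 and Gm2573 in the 18 libraries, Mir207 without vehicle replicate 6, Gm25357 without angiotensin II replicate 2 and Gm44354 without angiotensin II replicate 5. In the mice with cells they were Gm9626 at a pseudocount of 1 and Gm22492 without angiotensin II + amnion epithelial cells replicate 1. The filter tested fewer genes, 13649, and the share past the threshold was also lower, at 0.740% against 2.35% in the main comparison. In the interaction the share was 0.865% against 2.54%. The cause of these and the other differences was not tested. Median-ratio scaling gave 640 genes, with 333 higher and 307 lower. Genes named by the rule that lost the unadjusted threshold when 1 mouse was left out were Nos2 in 13 of 24 fits, F13a1 in 11, Mt2 in 8, Dlx1as in 7, Pecam1, Slc4a1 and Barhl1 in 4 each, Il1a and Astn2 in 2 each, and Gm14295 in 1.

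With the replicate number as a block, 815 genes passed the unadjusted threshold in the main comparison, 1416 in the interaction, and 0 the adjusted threshold. In the erythroid list 4 of 8 genes were higher with the block, beside 449 of all 27286 genes. Without the block 2 were higher, beside 360 of all genes (1.32%). Same-numbered mice of different groups had correlated deviations over 0.1 in 28 of 36 pairs (range -0.224 to 0.797), in 6 of 6 pairs of vehicle with angiotensin II + amnion epithelial cells, and in 4 of 6 pairs of vehicle with angiotensin II. In 10 of 36 pairs the same number gave the highest correlation. The highest correlations, 0.694 to 0.797, all came from pairs in which both mice had a library of high total FPKM. Among the other pairs the highest was 0.532. Why mice deviated together was not tested. The labels do not tie a number to a shared litter or day, and not every pair was over 0.1, so the numbers were not taken to pair the mice, although many deviated together. Genes at few reads are limited by depth, and a list at few reads by single mice.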
